A study of Sus scrofa with 102 samples.

Results

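The genes described here are the membrane transporters and channels among the transcripts that differed between 2 crossbred types of pig: the solute carriers (SLC), the ATP-binding cassette (ABC) proteins, the sodium and calcium pumps, the aquaporins and the potassium, sodium, calcium, chloride and TRP channels. They were chosen by their gene symbols from the probes that the study listed as more than 2-fold different between the breed types in fat, liver or muscle. This gave 69 probes of 60 genes, out of 2011 probes with 1526 symbols in those lists and 43221 probes on the array. The fat list held 16 of the 69 probes, the liver list 50 and the muscle list 16, and 9 probes stood in more than 1 list. Since the breed type contrasts chose these genes, their differences between breed types are given as a description. A call between breed types marks there only a value past the threshold and is no test, whereas tissues and ages were compared with a test.

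Solute carriers move ions, sugars, amino acids, organic acids and drugs across membranes along gradients or by exchange, and ABC proteins use ATP to move their substrates or to gate a channel. In liver such carriers are known for taking up nutrients, hormones and drugs from portal blood and for trading glucose, ketone bodies and amino acids with other tissues. In skeletal muscle, pumps and channels are known for keeping up the membrane potential that contraction draws on, and in fat, carriers of glucose, fatty acids, lactate and amino acids serve the storage and release of energy.

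All animals were females born to 2 Landrace x Large White x Duroc (LWD) sows that were mated with 1 Landrace boar (LWDL) or 1 Meishan boar (LWDM), so a difference between the breed types cannot be told apart from a difference between these 2 boars. Subcutaneous adipose tissue (fat) was taken from sucklings (12-day-old) and fattening pigs (5-month-old), and liver and longissimus dorsi muscle also from 85-day-old fetuses. Fetuses were 6 LWDL and 6 LWDM, sucklings were 5 and 6, and fattening pigs were 8 and 7, which made 102 arrays in 16 groups. On each array the RNA of 1 animal, labeled with Cy3, was hybridized together with a control labeled with Cy5, which was liver RNA pooled from LWD females. The dyes were not swapped. All levels are log2 ratios of sample over this control: 0 is the level of the control, and a step of 1 is a 2-fold difference. A level of one probe cannot be set against that of another, and a lower level in a tissue cannot be told apart from fewer cells of a type that holds the transcript.

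The share of probes above background in Cy3 ran from 65.7% to 81.3% of an array. A pair of arrays stood apart. Their median correlation with the arrays of their own group was 0.195 and 0.198 over 26165 probes, against 0.596 to 0.988 for the other 100. On the array labelled muscle LWDL suckling 2, the Cy5 channel resembled muscle RNA (r = 0.637 with the median control, 0.968 with the Cy3 channel of its group), not liver RNA. On the array labelled liver LWDL fetus 2, the Cy3 channel resembled the control (r = 0.986) and fattening liver (r = 0.967) more than its own group (r = 0.890). Both were kept, and values that change without them are given beside the result. Samples with the same animal number deviated together in 65 of 68 cases apart from suckling muscle, but in 4 of 22 cases that involved it, and a score over 122 probes that separated the breed types in suckling fat and liver ran from -0.18 to 1.85 in suckling muscle labelled LWDL and from -0.85 to 1.36 in that labelled LWDM. Directions between the breed types in suckling muscle therefore rest on labels that the data do not bear out. Markers of any cell type could be used only where the study's lists of breed type differences pair them with a probe. Marker differences between the breed types therefore follow in part from that choice. Markers of skeletal muscle (16 of the 29 on the list had such a probe) were high in fat as well: their median level was 4.52 in LWDL and 5.24 in LWDM sucklings and 1.32 and 3.16 in fattening pigs, against 5.67 to 6.36 in muscle and -0.08 to 0.79 in liver. Each age was scanned on its own days, so age and scan day cannot be told apart. Fattening fat was scanned on another day than fattening liver and muscle, so for fat at that age tissue and scan day cannot be told apart either. In sucklings 3 of the 5 LWDL muscle arrays were scanned on another day than the other suckling arrays.

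**Figure D1:**
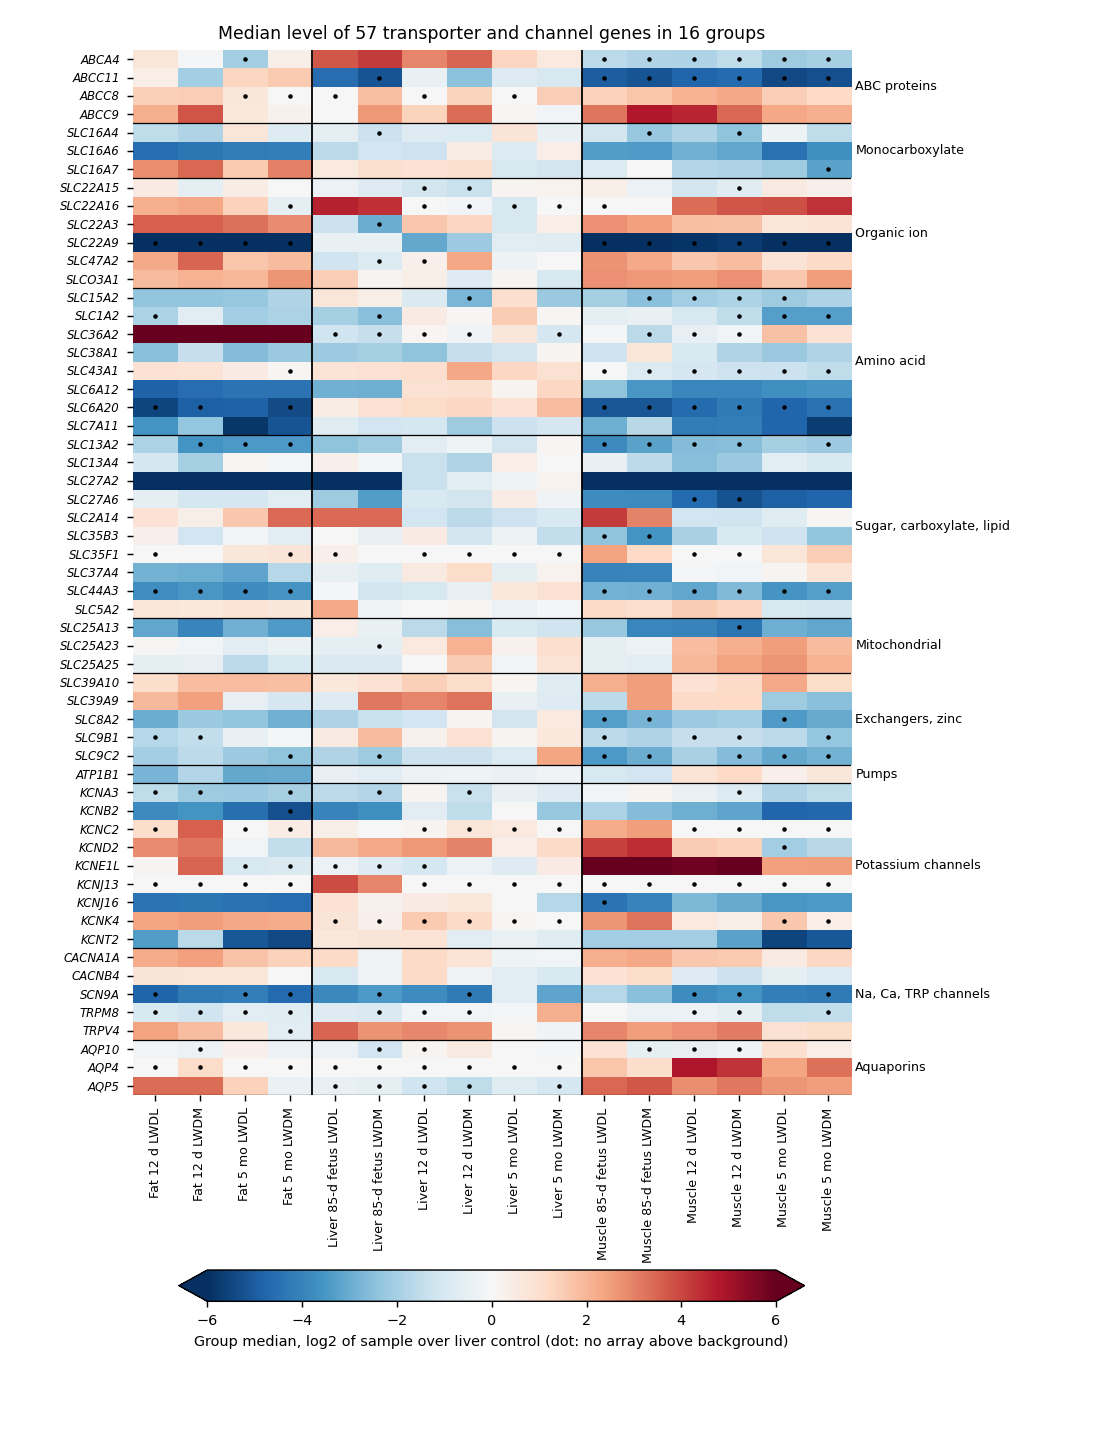
Median log2 ratio of sample over control for 57 of the 60 genes (rows, ordered by role) in each of the 16 groups (columns, by tissue, age and breed type), with colors capped at -6 and 6. A dot marks a group in which no array was well above background. The strongest blocks of color separate liver from fat and muscle, and SLC36A2 stands out in fat and KCNE1L in muscle.

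The transporters were first sorted by the tissues in which they were above background, which describes a choice that drew 50 of its 69 probes from the liver list. Of the 69 probes, 30 had all arrays of some group above background in all 3 tissues, 18 reached this in liver alone and 3 in muscle alone (the water channel AQP4, the potassium channel KCNC2 and the channel subunit KCNE1L). None did so in fat alone. Another 4 probes reached it in no group: the second probes of the glutamate carrier SLC1A2 and the sodium/proton exchanger SLC9B1, the pain-fiber sodium channel SCN9A and the little-characterized carrier SLC35F1. SCN9A was above background on 11 of 38 liver, 7 of 38 muscle and 1 of 26 fat arrays, and SLC35F1 on 1, 8 and 2. The other 65 probes were tested in at least 1 tissue comparison. A probe was called where the difference was over 2-fold with a limma adjusted p under 0.05.

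Liver was set against muscle in fetuses, sucklings and fattening pigs, and against fat in sucklings and fattening pigs, to ask in which tissue each transporter was expressed. In fattening pigs 57 of the 69 probes were tested between liver and muscle, of which 34 were higher in liver and 9 lower, while 22.2% of all tested probes were called higher and 21.4% lower. In sucklings 29 were higher and 10 lower of 50 tested (19.0% and 17.0% of all probes), and in fetuses 23 and 18 of 49 (17.1% and 17.5% of all probes). With normexp background correction the suckling split moved to 11 higher and 7 lower. It also called fewer in fetuses and fattening pigs, and between fat and liver, as given at the end. Between fat and liver, 12 were higher in fat and 32 lower of 56 tested in fattening pigs (18.8% and 17.3% of all probes), and 11 higher and 25 lower of 52 in sucklings (16.2% and 14.6% of all probes). Between fat and muscle, 11 were higher in fat and 9 lower of 35 in fattening pigs (19.2% and 16.6% of all probes), and 12 and 10 of 41 in sucklings (14.3% and 11.8% of all probes), where normexp gave 6 and 9. The liver list gave 50 of the 69 probes and 18 could be tested only through their signal in liver, so the choice of probes and the filter favored higher calls in liver, and nothing is read from these splits. Where many arrays of the lower group were not above background, the number that were is given with the fold, which then rests on signals near background and is approximate. A probe that entered a comparison of tissues or ages only through the side where it was high has no p value printed. Its fold and call are a description.

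Among carriers of fatty acids and organic anions, SLC27A2 (FATP2), a fatty acid carrier and very-long-chain acyl-CoA synthetase of liver and kidney, lay between -0.51 and -0.10 in fattening LWDL liver (median -0.28) and between -0.15 and 0.41 in LWDM liver (median 0.21). In fattening fat it lay between -8.64 and -7.48 in LWDL (median -8.11) and between -8.93 and -8.03 in LWDM (median -8.55), and in muscle between -8.61 and -7.90 in both types together. Liver did not overlap with either tissue. SLC27A2 was 299-fold lower in fat than in liver of fattening pigs (-8.22 ± 0.09 (SE; 15 against 15), adjusted p = 3.68e-47) and 294-fold higher in liver than in muscle (8.20 ± 0.09). Its suckling liver arrays read -1.22, -1.32, -1.89, -2.0 and -1.23 in LWDL and -0.96 to -0.17 in LWDM (median -0.68), while suckling fat read -6.19, -6.99, -6.08, -6.25 and -5.82 in LWDL and -7.92 to -6.85 in LWDM. The difference between suckling fat and liver was -5.71 ± 0.57 (52.3-fold). In sucklings, where 2 of 11 muscles were above background, liver exceeded muscle 211-fold, and 356-fold without the muscle array that stood apart, on which SLC27A2 read -1.83. The organic anion carrier SLC22A9 was above background in no fat and no muscle array, so that liver exceeded muscle at least 4.89-fold and fat at least 5.22-fold in fattening pigs, and muscle at least 5.07-fold in fetuses.

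The amino acid carriers included SLC6A20, the sodium-dependent carrier of proline and other imino acids. In liver it read 1.10, 1.29, 1.00, 0.78 and 1.32 in LWDL sucklings, and the group medians of liver at all ages lay between 0.44 and 1.84. It was above background on 1 of 26 fat arrays and on no muscle array. Liver therefore exceeded muscle at least 4.93-fold in fetuses, 5.16-fold in sucklings and 7.43-fold in fattening pigs, and exceeded fat at least 6.96-fold in sucklings. SLC6A12, the betaine and GABA carrier, was 47.6-fold lower in fat than in liver of sucklings (-5.57 ± 0.28, adjusted p = 1.32e-16).

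**Figure D2:**
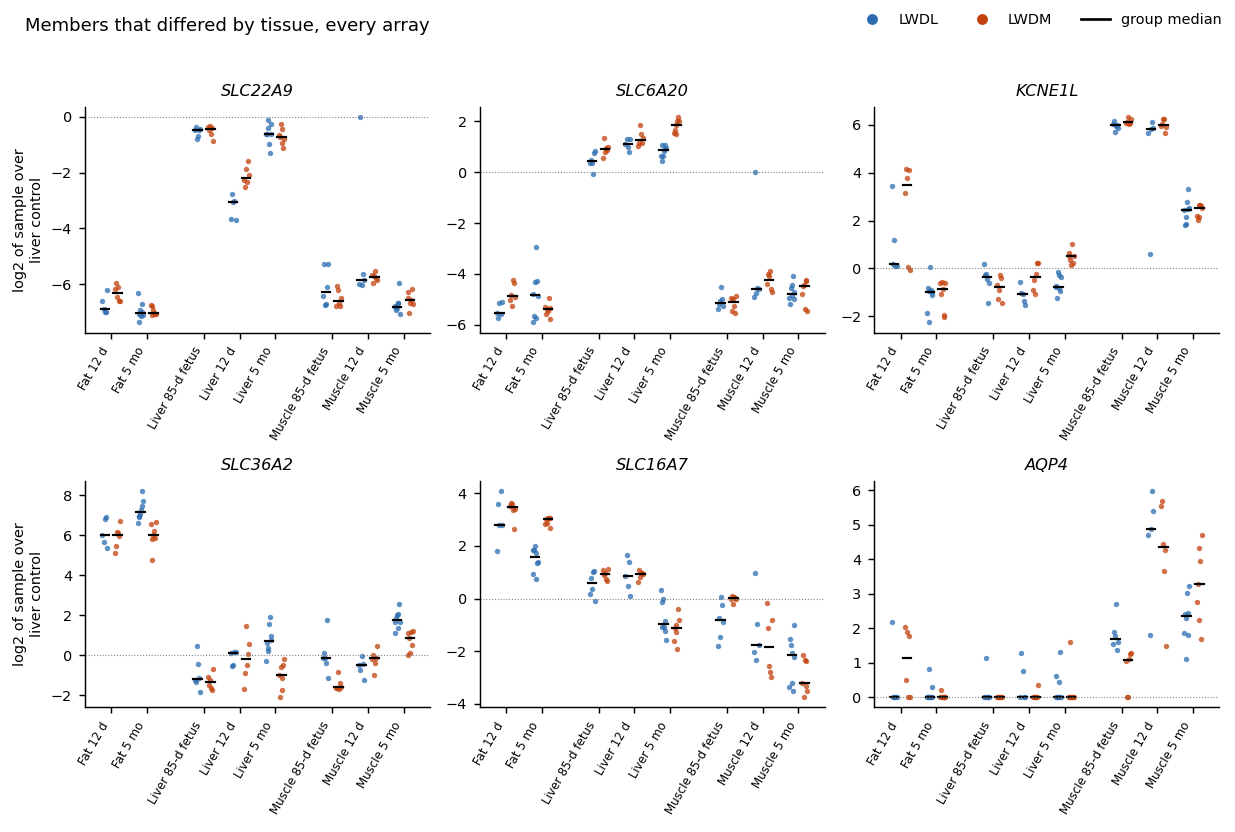
Log2 ratio of sample over control (vertical axes) on every array for SLC22A9, SLC6A20, KCNE1L, SLC36A2, SLC16A7 and AQP4, by tissue, age and breed type; each point is 1 animal and each bar a group median. SLC22A9 and SLC6A20 are higher in liver than in fat and in all muscle arrays but the one that stood apart, SLC36A2 sits between 4.75 and 8.20 in fat, and KCNE1L and AQP4 are high in muscle.

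Fat was marked by SLC36A2 (PAT2), a proton-coupled carrier of glycine and proline. Suckling fat read 6.00, 5.67, 6.82, 6.92 and 5.36 in LWDL and 5.12 to 6.73 in LWDM (median 6.04), and fattening fat 6.62 to 8.20 (median 7.18) and 4.75 to 6.66 (median 6.00). Liver arrays lay between -2.10 and 1.93 and muscle arrays between -1.69 and 2.56, below every fat array. Fat exceeded liver 109-fold (6.78 ± 0.21) and muscle 41.9-fold (5.39 ± 0.21) in fattening pigs, of which 6 of 15 livers and 11 of 15 muscles were above background, so that these folds rest in part on signals near background. In sucklings no liver or muscle array was above background and fat was at least 8.46-fold and 8.59-fold higher. Of 15 fat-cell markers 8 could be used, and these moved the same way between tissues. Their median level was 2.21 to 3.12 in fat against -1.53 to 0.16 in liver and -2.29 to -0.28 in muscle. They were limited to the lists of breed type differences, as given above. Whether they are specific to fat cells was not tested.

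The lactate and pyruvate carrier SLC16A7 (MCT2) was also highest in fat, 28.9-fold over muscle in fattening pigs (4.85 ± 0.22) and 25.5-fold in sucklings (4.67 ± 0.35), with 1 of 15 and 2 of 11 muscles above background, and it was 8.83-fold and 4.90-fold over liver. The other 2 genes that were higher in fat than in both other tissues at both ages were SLC22A3 (OCT3), a carrier of monoamines, 9.34-fold over liver in fattening pigs, and SLC2A14, a glucose carrier whose pig gene now bears the name SLC2A3 (GLUT3), 11.9-fold over liver and 6.86-fold over muscle. ABCC11, an efflux pump of lipophilic anions whose probe now belongs to the pig gene ABCC12, was above background on no muscle array, and fattening fat exceeded muscle at least 6.56-fold. The fatty acid carrier SLC27A6 (FATP6) was 16.2-fold higher in fat than in muscle of fattening pigs (4.02 ± 0.23; 5 of 15 muscles above background), and at least 2.69-fold higher in sucklings.

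Higher in muscle than in liver were KCNE1L, an accessory subunit of voltage-gated potassium channels, the water channels AQP4 and AQP5, and ABCC9, the regulatory SUR2 subunit of the ATP-sensitive potassium channel. AQP5 and ABCC9 were not called between fat and muscle in sucklings (0.85 and -0.72 in fat against muscle) and were lower in fat in fattening pigs (-1.84 and -2.01). KCNE1L read 5.72 to 6.34 in all 12 fetal muscles and -1.45 to 0.18 in the fetal livers, where no array was above background. Muscle exceeded liver 71.4-fold in sucklings (6.16 ± 0.57 lower in liver) and 5.65-fold in fattening pigs (2.50 ± 0.17), with 2 of 11 and 8 of 15 livers above background. The control signal of this probe moved with the sample. The raw Cy3 signal had a median of 57314 in LWDL and 58136 in LWDM fetal muscle, 5835 and 4848 in suckling muscle and 136 and 127 in fattening muscle. Over the same groups the raw Cy5 signal of the common control fell from 2113 and 1923 to 303 and 235 and then to 90.8 and 93, and in liver it was 80 to 89. The raw Cy3 signal in fetal liver had medians of 77.5 and 71.8. Why the control rose with the sample was not tested. ABCC8 and KCNE1L were the only member genes whose highest group median of the control was more than 4 times the lowest, a comparison that was chosen after the values were seen.

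AQP4, the main water channel of fast muscle fibers, was above background on 21 of 38 muscle arrays and on none of fat or liver. Its suckling muscle read 4.71, 1.79, 4.87, 5.96 and 5.39 in LWDL and 1.48 to 5.68 in LWDM. Muscle exceeded fat at least 2.09-fold and liver at least 2.14-fold in sucklings. AQP5, best known from glands and lung, exceeded fetal liver at least 2.41-fold in muscle and was 10.9-fold above fattening liver (3.44 ± 0.22 lower in liver), where 1 of 15 livers was above background. Its control was above background on 17 of 102 arrays. With normexp correction AQP5 was -0.86 and -0.81 in liver against muscle of sucklings and fattening pigs, short of 2-fold. Suckling fat read 2.90 to 4.68 for AQP5, at least 2.92-fold above liver, and the muscle markers were high in that fat as given above. Their part in the AQP5 level of fat was not tested. The organic cation carrier SLC22A16, known for carnitine, was at least 3.18-fold higher in muscle than in liver of fattening pigs, and the organic anion carrier SLCO3A1 was 5.98-fold higher (2.58 ± 0.16 lower in liver). Fetal muscle exceeded fetal liver 29.2-fold for SLC22A3 (4.87 ± 0.23 lower in liver), with 3 of 12 fetal livers above background.

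ATP1B1, the beta subunit of the sodium/potassium pump, was lower in fat than in muscle by 3.40 ± 0.09 in fattening pigs (10.5-fold, adjusted p = 2.76e-32) and by 3.1 ± 0.17 in sucklings. The mitochondrial ATP-Mg/phosphate carrier SLC25A25 was 12.0-fold higher in muscle than in fat of fattening pigs (-3.59 ± 0.17 in fat against muscle). Its relative SLC25A23, the inward-rectifier subunit KCNJ16 and SLC37A4, which carries glucose-6-phosphate into the endoplasmic reticulum, were likewise lower in fat than in both other tissues at both ages. For SLC37A4 the difference of fat from muscle was -2.86 ± 0.08 in fattening pigs and -2.74 ± 0.15 in sucklings.

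The genes higher in liver than in muscle at each of the 3 ages included, beside SLC22A9, SLC27A2, SLC27A6, SLC6A20 and SLC16A7, the retinoid flippase ABCA4, KCNJ16, the sodium-activated potassium channel KCNT2, the ketone body carrier SLC16A6 (MCT7), the aspartate/glutamate carrier SLC25A13 (citrin), the cystine/glutamate exchanger SLC7A11 (xCT), the sodium/calcium exchanger SLC8A2 and SLC9B1. The 4 genes higher in muscle each time were ABCC9, AQP5, KCNE1L and SLCO3A1. ABCC9 was 6.51-fold higher in muscle than in liver of fetuses (2.70 ± 0.12 lower in liver) and 4.74-fold in fattening pigs, with 7 of 12 and 11 of 15 livers above background. ABCA4 was above background on no muscle array, and liver exceeded muscle at least 6.61-fold in fetuses and 3.12-fold in sucklings.

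To ask how these transporters change with age, each tissue was compared between successive ages. Between fetal and suckling liver 18 of 50 tested probes were higher in sucklings and 10 lower (10.5% and 11.9% of all probes), and without the fetal liver array that stood apart 20 were higher and 11 lower. From suckling to fattening liver 12 were higher and 11 lower of 55 (19.3% and 8.86% of all probes). In muscle 8 were higher and 10 lower in sucklings than in fetuses of 39 (12.5% and 15.0% of all probes), and 5 higher and 11 lower in fattening pigs than in sucklings of 35 (17.0% and 7.87% of all probes). In fat 4 were higher and 11 lower in fattening pigs of 38 (8.32% and 7.96% of all probes). Normexp correction gave 7 higher and 2 lower for suckling against fetal muscle, 0 and 6 for fattening against suckling muscle, and 4 and 6 for fat. For the first of these it moved the median difference of all probes from -0.13 to -0.01. In both liver comparisons normexp correction called fewer members as well, as given at the end.

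In liver the fatty acid carrier SLC27A2 rose most between fetus and suckling. Fetal LWDL liver lay between -8.29 and 0.18 (median -8.06), where 0.18 is the array that stood apart, and fetal LWDM liver between -6.64 and -6.06 (median -6.38), against -2.0 to -0.17 in all suckling livers. The rise was 5.39 ± 0.54, 42.0-fold, with all arrays (adjusted p = 5.59e-11) and 67.0-fold without that array. SLC6A12 rose 13.8-fold (3.79 ± 0.23) from fetal medians of -2.87 and -2.94 to suckling medians of 0.94 and 0.97, and SLC22A3 12.2-fold (3.60 ± 0.32), the latter with 3 of 12 fetal livers above background. The glucose carrier SLC2A14 fell 21.4-fold, from medians of 3.40 and 3.38 in fetal liver to -1.14 and -1.55 in suckling liver (-4.42 ± 0.29), with 8 of 11 suckling livers above background. Of 17 hepatocyte markers 7 could be used. Their medians in LWDL and LWDM were -3.85 and -3.73 in fetal, -0.93 and -0.42 in suckling and 0.04 and -0.04 in fattening liver. The part of these markers in the changes with age was not tested. SLC22A16 and the inward-rectifier potassium channel KCNJ13 were above background on 11 of 12 fetal livers each and on no suckling liver, lower by at least 2.62-fold and 1.45-fold. Their control was above background on 11 and 0 of 102 arrays, and with normexp correction KCNJ13 fell short of 2-fold.

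**Figure D3:**
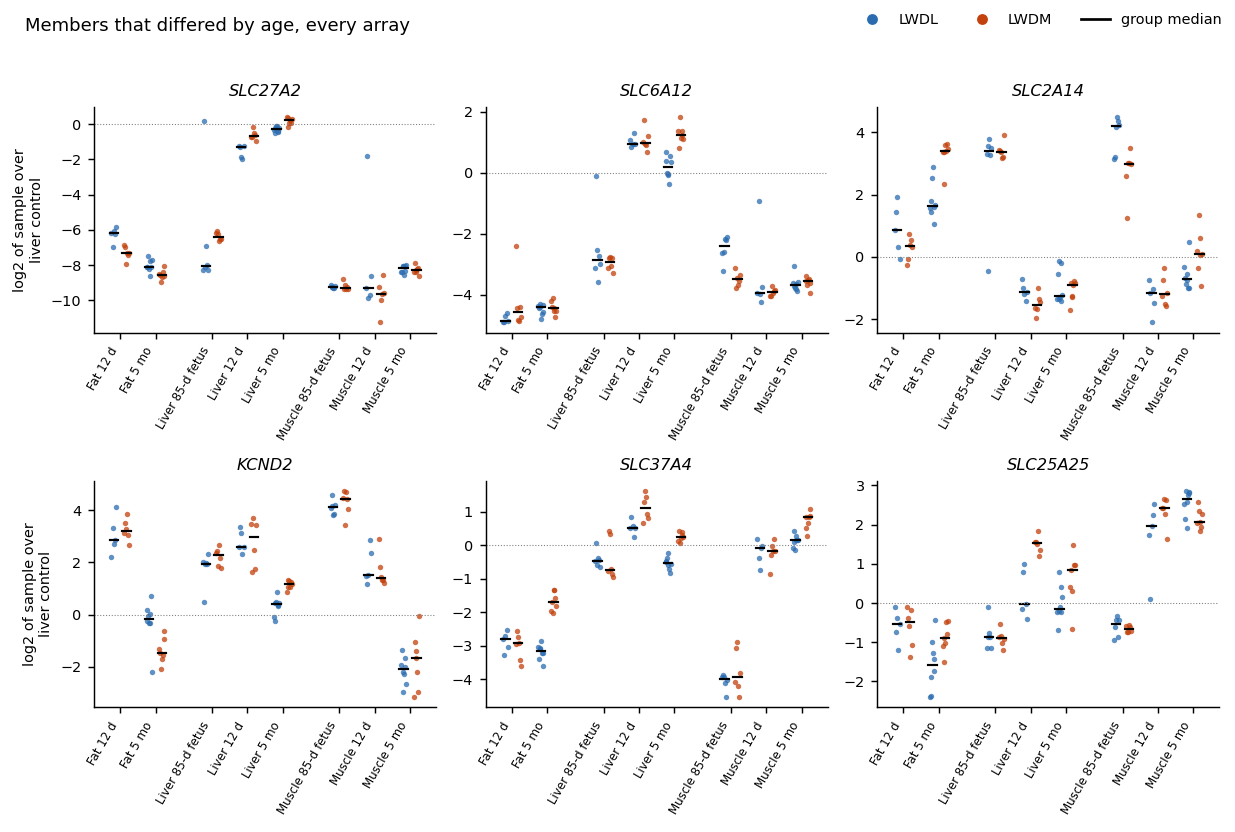
Log2 ratio of sample over control (vertical axes) by age for SLC27A2, SLC6A12, SLC2A14, KCND2, SLC37A4 and SLC25A25 in fat, liver and muscle; each point is 1 animal. SLC27A2 and SLC6A12 rise in liver from fetus to suckling, SLC2A14 falls in liver and muscle, SLC37A4 and SLC25A25 rise in muscle, and KCND2 is lower in fattening pigs in all 3 tissues.

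From suckling to fattening pigs, SLC22A9 rose 4.04-fold in liver (2.01 ± 0.12, adjusted p = 7.44e-17). The sperm-type sodium/proton exchanger SLC9C2 rose 3.68-fold and the peptide carrier SLC15A2 (PEPT2) 3.49-fold, both unevenly between the breed types as given below and with 6 and 5 of 11 suckling livers above background. SLC9C2 was 0.42 in LWDL alone and SLC15A2 0.79 with normexp correction, short of 2-fold. The second probes of the delayed-rectifier channel KCNB2 and of SLC16A6 rose as well, by 2.58 ± 0.37 (5 of 11 suckling livers above background) and by at least 1.26-fold. The osmosensitive channel TRPV4 fell 7.91-fold (-2.98 ± 0.29; 11 of 15 fattening livers above background), the zinc carrier SLC39A9 (ZIP9) fell 6.68-fold (-2.74 ± 0.50) and ABCA4 fell 4.74-fold (-2.25 ± 0.36). SLC39A9 lay at separate levels in different animals and its control signal was higher at fattening age, both given below, and their part in its fall in liver and muscle was not tested.

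In muscle SLC37A4 rose 13.0-fold after birth (3.70 ± 0.15, adjusted p = 5.22e-21), from -4.54 to -2.89 in fetuses to 0.19, -0.39, -0.73, -0.08 and -0.04 in LWDL and -0.85 to 0.20 in LWDM sucklings, so that the ages did not overlap. SLC25A25 rose 6.31-fold (2.66 ± 0.18) and AQP4 8.38-fold (3.07 ± 0.43), the latter with 2 of 12 fetal muscles and 2 of 102 controls above background. SLC2A14 fell 23.1-fold (-4.53 ± 0.24), with 6 of 11 suckling muscles above background. The A-type potassium channel KCND2 fell 5.38-fold (-2.43 ± 0.27) and the two-pore potassium channel KCNK4 5.26-fold (-2.40 ± 0.24), the latter with 4 of 11 suckling muscles above background. With normexp correction AQP4 was 0.83 and KCNK4 -0.40, short of 2-fold. Without the suckling array that stood apart, SLC25A13 and the second probes of SLC38A1, the glutamine carrier SNAT1, and of KCNA3, a potassium channel best known from T cells, fell to a called -1.21, -1.15 and -1.11.

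KCND2 was lower at fattening age in muscle, by 13.3-fold (-3.73 ± 0.26), and in fat, by 15.7-fold (-3.98 ± 0.24), with 2 of 15 fattening muscles and 8 of 15 fattening fats above background. Suckling fat read 2.19, 3.32, 2.70, 2.85 and 4.12 in LWDL and 2.66 to 3.87 in LWDM, all above the fattening range of -2.19 to 0.69. KCNE1L fell 8.01-fold in muscle (-3.0 ± 0.34), while its control signal fell as given above, and SLC39A9 fell 6.27-fold (-2.65 ± 0.47). SLC36A2 rose in muscle by at least 1.23-fold, the sulfate carrier SLC13A4 rose 2.72-fold (1.44 ± 0.18) and SLC16A4 (MCT5), an orphan member of the monocarboxylate carriers, 2.23-fold (1.16 ± 0.25), the latter with 1 of 11 suckling muscles above background. SLC16A4 was 0.98 without LWDL suckling muscle 4, no longer past 2-fold. With normexp correction SLC16A4 was 0.24, SLC13A4 0.72 and SLC36A2 0.345, and in LWDM alone SLC16A4 was 0.87 and SLC36A2 0.92. In fat ABCC11 rose 4.75-fold (2.25 ± 0.26), SLC2A14 3.93-fold (1.97 ± 0.21) and SLC13A4 2.92-fold (1.55 ± 0.13), while ABCC9 fell 7.36-fold (-2.88 ± 0.23) and AQP5 7.11-fold (-2.83 ± 0.24), with 8 and 7 of 15 fattening fats above background. In LWDL alone ABCC11 was 0.96 and SLC2A14 0.92, short of 2-fold. The muscle markers were lower in fattening than in suckling fat by the medians given above, and their part in the fall of ABCC9, AQP5 and KCND2 was not tested.

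Between the breed types, a difference is given as LWDM minus LWDL. These are the contrasts that chose the genes, so the counts describe the choice and nothing is read from them. Of the tested members, 4 were called higher and 3 lower in LWDM in suckling fat (1.47% of all probes called), 3 and 3 in fattening fat (3.08%), 3 and 1 in fetal liver (0.834%), 8 and 9 in suckling liver (1.70%), 11 and 7 in fattening liver (2.19%), 5 and 3 in fetal muscle (1.51%) and 0 and 3 in fattening muscle (1.40%). Without the fetal liver array that stood apart, 7 were higher and 7 lower there. With normexp correction fewer were called in each of these contrasts, in the same order 2 and 1, 3 and 1, 1 and 0, 2 and 1, 3 and 2, 4 and 1, and 0. With the slide as a fixed block 0 were called in suckling fat, 2 in suckling liver and 3 in fetal muscle. Each of these rests on the 1 slide that held both breed types, with 2 arrays of each, as do the differences within slides below. In fattening pigs each slide held arrays of 1 breed type, so slide and breed type cannot be told apart there. At the edge of the 2-fold threshold in fattening liver, SLC6A20 at 1.00 lay just inside and SLC35B3 at -0.88 just outside.

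ABCC9 was higher in LWDM in 4 of the 7 contrasts. In fetal liver the arrays read -0.70 to 0.61 in LWDL (median -0.01, 1 of 6 above background) and 2.18 to 3.03 in LWDM (median 2.60, 6 of 6). In suckling liver they read 1.17, 1.35, 1.37, 1.70 and 0.29 in LWDL and 2.73 to 3.73 in LWDM, and in suckling fat 1.95, 3.36, 1.93, 2.16 and 2.46 against 3.60 to 4.46. Fetal muscle read 3.09 to 3.32 against 4.59 to 4.97. None of these groups overlapped, and the differences were 2.69, 2.12, 1.55 and 1.59. In fattening pigs the breed types overlapped in all 3 tissues, with medians of 0.63 and 0.27 in fat, 0.12 and -0.15 in liver and 2.31 and 2.18 in muscle. Within slides the differences were 3.40 in fetal liver, 2.35 in suckling liver, 1.51 in fetal muscle and 1.06 in suckling fat. Each of these rests on the 1 slide of its contrast that held both breed types, with 2 arrays of each. In fetal liver 1 of the 2 LWDL arrays was the array that stood apart, and without that array the fetal liver difference over all slides was 2.56. With normexp correction the fetal liver difference was 0.99. Muscle markers, which came from the study's lists of breed type differences, were also higher in LWDM than in LWDL suckling fat. Their part in the suckling fat difference was not tested.

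The second KATP subunit, ABCC8 (SUR1, best known from pancreatic beta cells), was above background on all 6 LWDM and no LWDL fetal livers, and on 7 of 7 LWDM and none of 8 LWDL fattening livers. Its raw Cy3 signal was 603 to 927 in LWDM fetal liver against 57 to 71.5 in LWDL. The raw control signal on the same arrays was 412 to 538 against 49 to 60, and the ratio in LWDM was 1.74 to 1.85. In fattening LWDM liver Cy3 was 144 to 672 and the control 104 to 356. The cause of the shared rise was not tested.

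**Figure D4:**
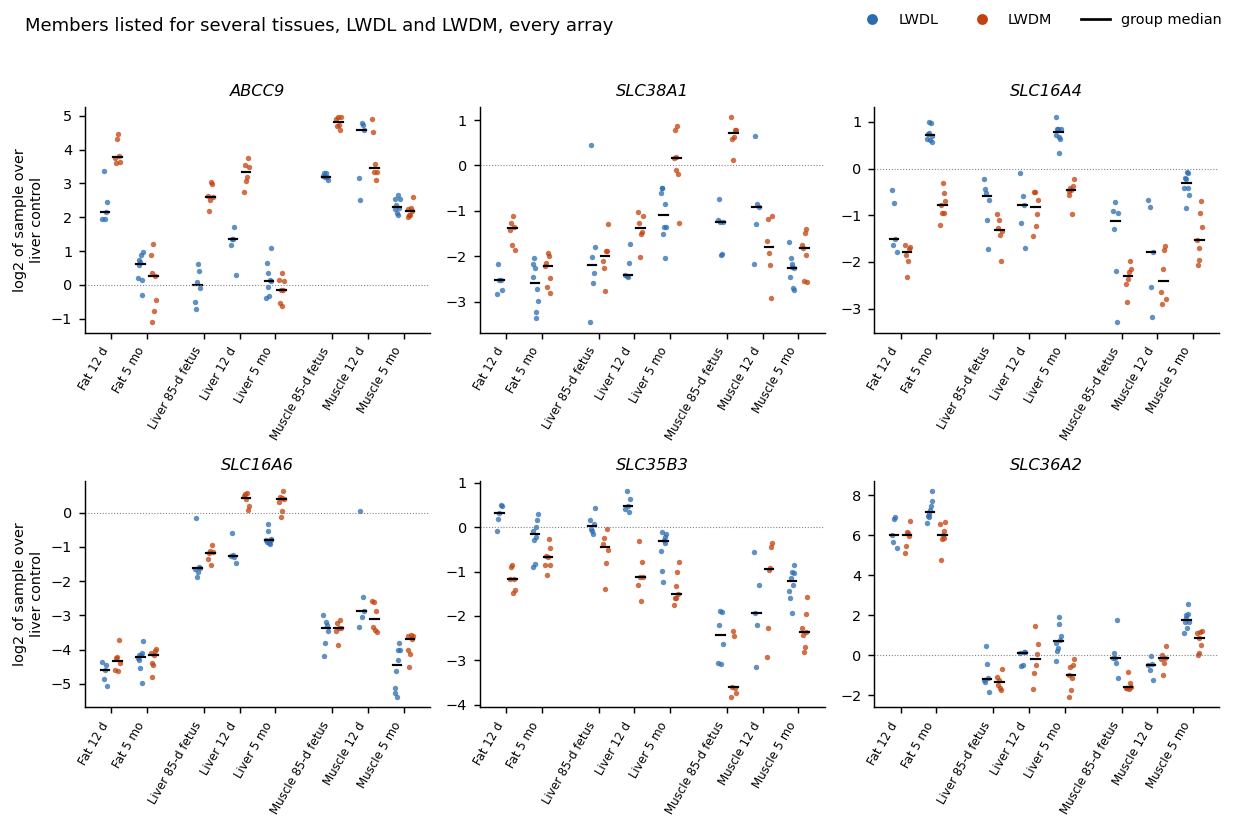
Log2 ratio of sample over control (vertical axes) by breed type for ABCC9, SLC38A1, SLC16A4, SLC16A6, SLC35B3 and SLC36A2 in each tissue and age; each point is 1 animal. ABCC9 is higher in LWDM in fetal liver and muscle and in suckling fat and liver, SLC38A1 in fetal muscle, SLC16A6 in postnatal liver, and SLC16A4, SLC35B3 and SLC36A2 are lower in LWDM where the breed types part.

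SLC16A6 was higher in LWDM in postnatal liver. Suckling liver read -1.25, -0.60, -1.23, -1.29 and -1.47 in LWDL and 0.07 to 0.56 in LWDM (difference 1.54, within slides 1.06), and fattening liver -0.93 to -0.33 and -0.13 to 0.62 (1.05). Neither overlapped. Its second probe, which came from the fat list, was above background on 7 of 8 LWDL and no LWDM fattening fat, and gave medians of -0.59 and -0.64 in fattening liver, so the probes disagree there. The related SLC16A4 was lower in LWDM in fattening fat, at -1.21 to -0.30 against 0.57 to 1.00 (-1.52), in fattening liver, at -0.97 to -0.23 against 0.33 to 1.11 (-1.25), and in fattening muscle, at -2.06 to -0.69 against -0.84 to -0.06 (-1.10), where the ranges overlapped. Suckling fat read -0.45, -1.63, -0.74, -1.5 and -1.78 in LWDL and -2.32 to -1.63 in LWDM. SLC16A7 was 1.46 higher in LWDM fattening fat, where the fat-cell markers were higher too (medians of 2.40 and 3.12) and their part was not tested.

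Among amino acid carriers, SLC38A1 was higher in LWDM in fetal muscle, at 0.13 to 1.07 against -1.98 to -0.74 (median 0.71 against -1.25). The difference was 2.06 by this probe and 1.96 by the other. In suckling fat it read -2.83, -2.17, -2.52, -2.52 and -2.76 in LWDL and -1.87 to -1.11 in LWDM (1.10), and in fattening liver the medians were -1.10 and 0.16 (1.15 and 1.16 by the 2 probes). SLC7A11 was lower in LWDM suckling liver, at -3.04 to -1.60 against -1.02, -0.85, -1.21, -1.06 and -0.95 in LWDL, by 1.23 and by 1.84 on the log2 scale with its 2 probes, and 1.01 higher in fetal muscle. SLC36A2 was 1.29 lower in LWDM fattening fat and 1.07 lower in fattening muscle, from the medians of 7.18 and 6.00 in fat and of 1.77 and 0.85 in muscle. It was above background on 8 of 8 LWDL and 3 of 7 LWDM fattening muscles.

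SLC15A2 was above background on all 5 LWDL and none of 6 LWDM suckling livers, which read -1.32, -0.10, -0.45, -0.96 and -0.88 against -4.03 to -2.39 and gave at least 1.31-fold. In fattening liver it read 0.53 to 2.03 against -3.42 to 1.18 (-2.42). SLC1A2 was 1.57 lower in LWDM fattening liver, at -1.09 to 0.97 against 1.05 to 2.44. Its second probe was above background there on 7 of 8 LWDL and no LWDM arrays, and the first was above background on 5 of 6 LWDM and none of 5 LWDL suckling fat. SLC43A1 (LAT3), a carrier of branched-chain amino acids, was 1.54 higher in LWDM suckling liver. SLC6A12 and SLC6A20 were 1.08 and 1.00 higher in LWDM fattening liver.

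SLC35B3, which carries the sulfate donor PAPS into the Golgi, was lower in LWDM sucklings in fat, at -1.48 to -0.84 against -0.07, 0.18, 0.33, 0.51 and 0.47 (-1.45), and in liver, at -1.66 to -0.32 against 0.41, 0.81, 0.47, 0.34 and 0.63 (-1.58). Within slides the differences were -1.35 and -1.56. In fattening liver the medians were -0.32 and -1.5, which was not called. In fattening muscle they were -1.22 and -2.36, with 7 of 8 and 1 of 7 arrays above background, too few to enter the fit. SLC2A14 was 1.49 higher in LWDM fattening fat. In fetal muscle it was 1.21 lower, but 0.05 higher within slides. SLC37A4 was 1.5 higher in LWDM fattening fat, where both the muscle markers given above and the fat-cell markers were higher in LWDM, and their part was not tested. The dicarboxylate carrier SLC13A2 (NaDC1) was 1.29 higher in fattening liver. SLC13A4 was 1.11 lower in fetal muscle, and SLC27A2 was 1.03 lower in suckling fat. SLC27A6, the kidney-type glucose carrier SLC5A2 (SGLT2) and the choline-carrier-like SLC44A3 were called in no contrast in which their signal allowed a comparison, with all arrays. Without the fetal liver array that stood apart they were -1.05, -2.16 and -1.11, and SLC27A2 was 1.57. In fattening liver SLC44A3 had medians of 0.64 and 0.91 in LWDL and LWDM by the brighter probe and of -0.55 and 0.67 by the other.

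Among mitochondrial carriers, SLC25A13 was lower in LWDM in suckling liver, at -3.04 to -2.18 against -1.25, -1.73, -1.60, -1.38 and -1.63 (-1.06), and in fetal muscle, at -4.12 to -3.57 against -2.90 to -1.79 (-1.61). The groups did not overlap. In fattening LWDM pigs animals 5 and 6 stood apart in all 3 tissues: their liver read -3.76 and -4.42 against -1.22 to -0.96 in the other 5, their fat -5.97 and -5.91 against -3.44 to -2.57, and their muscle -4.81 and -5.31 against -3.20 to -2.18. SLC25A23 and SLC25A25 were 1.16 and 1.26 higher in LWDM suckling liver, and SLC25A23 was 0.76 within slides.

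Among organic ion carriers, SLC22A3 was 2.11 higher in LWDM fattening liver, at -0.16 to 2.78 against -2.67 to -0.31, SLC22A9 was 1.13 higher in suckling liver, and SLCO3A1 was 1.16 lower in fattening liver. SLC47A2, which exports organic cations, was above background on no LWDL suckling liver and at least 1.37-fold higher in LWDM. SLC22A15, a carrier of zwitterions, and SLC22A16 were called in none of the breed contrasts in which their signal allowed a comparison. Among exchangers, SLC8A2 was 1.19 and 1.51 higher in LWDM suckling and fattening liver, and SLC9B1 was 1.31 higher in fetal liver, at 1.58 to 2.04 against 0.29 to 0.85. The second SLC9B1 probe, dimmer, had medians of 2.18 and 0.55 there. SLC9C2 was 2.81 higher in LWDM fattening liver, at -0.68 to 2.60 (median 2.39) against -1.41 to -0.29. The zinc carrier SLC39A10 (ZIP10) was 1.07 lower in fattening muscle, and ATP1B1 was 1.17 higher in suckling fat, where the muscle markers were higher too and their part was not tested.

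Among channels, KCNT2 was 1.46 higher in LWDM suckling fat, at -2.41 to -1.35 against -3.36, -3.45, -3.36, -3.47 and -2.43, and 1.68 lower in LWDM suckling liver, at -1.82 to 0.19 against 1.42, 0.55, 0.47, 1.37 and 0.80. Within slides the latter was -2.62. KCNA3 was above background on all LWDL and no LWDM suckling livers, at -0.28, 0.59, 0.01, 0.18 and 0.30 against -1.99 to -0.61, at least 1.30-fold lower in LWDM. KCNB2 was lower in LWDM fattening liver, at -3.13 to -1.17 against -1.43 to 0.55 (-2.06, and -1.33 by the second probe). KCNJ16 was 1.67 lower there, at -1.99 to -0.91 against -0.77 to 0.77. The cold receptor TRPM8 was 2.29 higher in LWDM fattening liver, at 1.16 to 2.46 against -2.62 to 1.99, with its control rarely above background. CACNB4, a calcium channel beta subunit, was 1.14 lower in suckling liver, and CACNA1A, the P/Q-type pore subunit, was called only without the fetal liver array that stood apart (-1.51). Markers of immune cells (13 of 17 could be used) had a median of 0.45 in LWDL and -0.48 in LWDM suckling liver. Their part in the lower KCNA3 of LWDM was not tested. The water and glycerol channel AQP10, AQP4, AQP5, KCNC2, KCND2, KCNE1L, KCNJ13, KCNK4, SCN9A and TRPV4 were called in no breed contrast with all arrays, but each had enough signal for only some of the contrasts and SCN9A for none. Among contrasts left out for this reason, KCNC2 in suckling fat read 0.34 to 1.75 in LWDL (0 of 5 above background) and 2.18 to 4.62 in LWDM (5 of 6), which did not overlap. In fattening fat the medians were 1.40 and -0.38 for AQP5 (6 of 8 and 1 of 7 above background) and -0.17 and -1.49 for KCND2 (7 of 8 and 1 of 7).

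Suckling muscle is the one contrast from which no probe had been listed, so its breed difference was tested, under labels that the data do not bear out and from which little can be read. Of 27 tested members 0 were called, as 0 of all 27937 tested probes were (0%), and 1 member, ATP1B1, had an unadjusted p under 0.05 (0.56 ± 0.24 higher in arrays labelled LWDM, limma adjusted p = 0.711), against 793 of all probes. The methods' t-test called 0 as well.

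The zinc carrier SLC39A9 differed between animals in the same way in each tissue compared (suckling muscle was left out), a pattern that was looked for after its values were seen. In fattening pigs LWDL animals 5 and 6 and LWDM animal 7 were high in every tissue. They read 2.45, 2.03 and 2.33 in fat, 2.28, 2.19 and 1.93 in liver, and 0.26, 0.19 and 0.16 in muscle, whereas the other 12 pigs lay between -1.56 and -0.22 in fat, -1.12 and 0.14 in liver and -3.17 and -1.68 in muscle. In suckling fat the LWDL read 1.78, 1.95, 1.96, 2.00 and 2.15. LWDM animal 1 read -1.05 and animal 5 -0.03 in fat, and -0.39 and 0.64 in liver, while the other 4 lay between 2.43 and 2.62 in fat and 3.1 and 3.53 in liver. In fetuses LWDM animal 4 read -0.81 in liver and -1.33 in muscle and animal 1 read 0.47 and -0.07, against 3.05 to 3.41 and 2.49 to 2.70 in the other 4. The 6 LWDL fetuses lay between -1.77 and -1.0 in muscle, and between -0.94 and -0.50 in liver apart from 0.97 on the array that stood apart. Within each of these tissues the animals fell into separate levels, and the same animals were high in each.

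The share of the SLC39A9 variance within breed types that lay between animals, the intraclass correlation over tissues, was 0.976 in fetuses (11 animals, without the one whose liver array stood apart), 0.994 in sucklings (fat and liver) and 0.98 in fattening pigs. The median over all probes was 0.149, 0.265 and 0.09, and 2, 1 and 3 of 27100, 27998 and 27876 probes had at least the correlation and the spread of SLC39A9. SLC37A4 in fetuses, at 0.822, was the other member above 0.8. The breed type difference of SLC39A9 was 3.0 in fetal muscle, with 4 high and 2 lower animals in LWDM and none high in LWDL. Its raw control signal also ran higher in fattening liver and muscle (group medians of 757 to 806) than in sucklings (373 to 432) and fetuses (272 to 308). The median Cy3 signal was 1134.5 in LWDM fetal liver against 139 in LWDL.

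**Figure D5:**
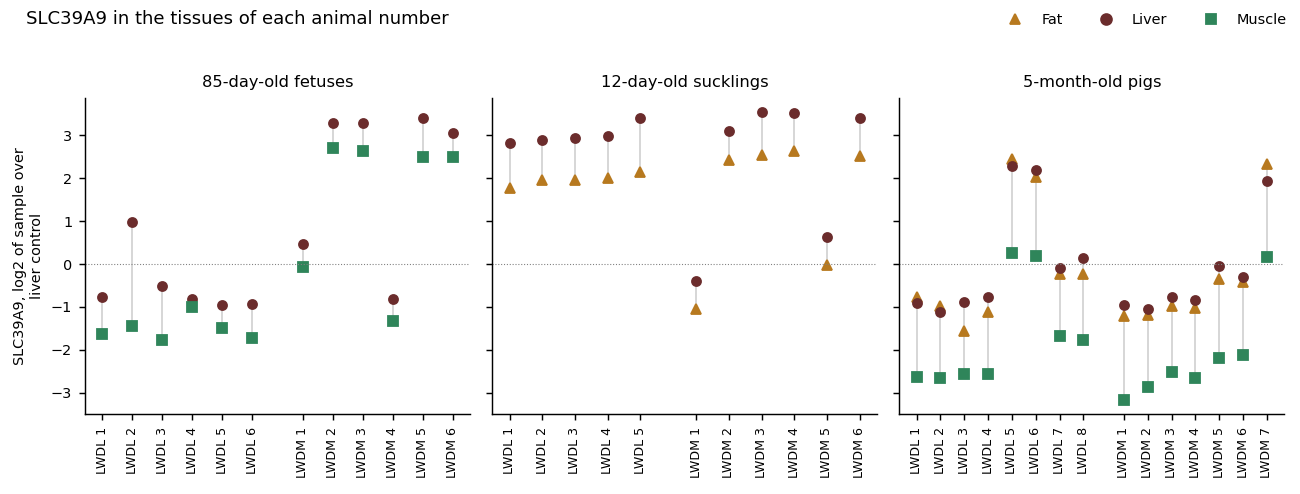
Log2 ratio of sample over control for SLC39A9 (vertical axes) by animal number and breed type, with fat, liver and muscle of the same animal as different markers and 1 panel for each age; suckling muscle is not drawn. The markers of an animal move together, with LWDL 5, LWDL 6 and LWDM 7 high among fattening pigs and LWDM 4 low and LWDM 1 between among fetuses.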

How the data were processed

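Per the file headers, the deposited intensity values are the spot and background medians of both dyes and the processed signals that the authors made with Agilent Feature Extraction 9.5. The deposited log10 values are its log10 ratios of Cy5 over Cy3, turned here to log2 of sample over control, and a ratio is 0 where both channels are dim. Of 44638 spots, 1417 controls were left out. The number of arrays limits the precision. Tested probes had Cy3 above background on all arrays of some breed type group in the comparison, with 3 or more values per group. Group means were fitted in R 4.3.3 by limma 3.58.1 (lmFit, eBayes) without covariates. Tissue and age contrasts averaged the breed types, and p values were adjusted (Benjamini-Hochberg) over all tested probes. Calls needed over 2-fold and an adjusted p under 0.05. Where no array of a group was above background, a lower bound came from Cy3 after normexp (offset 50), loess and quantile normalization. The fits were tested on simulated data. Tissues of 1 animal share its number, except where suckling muscle is involved (65 of 68 against 4 of 22 nearest by number). Symbols are those of the study's lists, from which no values were taken. The members, role lists and markers were chosen with earlier results of these data known. Members are named with the exceptions below. Genes listed in several tissues or with several probes are given in full, by the brightest probe, as are the 3 with the largest called difference in each direction. A few transporters that the symbol pattern matched are not reported here, and some of them are in the counts of members.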

Additional observations from a re-analysis of the deposited data

Results flagged for a closer look

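In 20 of 208 groups of arrays of the genes given in full, 1 array lay far from the others by its gap to the nearest value over the whole range, and chance alone gives about 1 group in 20. Of the 20, 6 are on the 2 arrays that stood apart. On liver LWDL fetus 2 the levels were -0.37 for KCNB2, -0.16 for SLC16A6 and -0.06 for SLC25A13. On the array labelled muscle LWDL suckling 2 they were 0.44 for KCNB2, 0.05 for SLC16A6 and -0.14 for SLC7A11.

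In fattening fat the low levels were -3.40 for SLC1A2 in LWDL 6, and -3.56 for SLC1A2, -7.10 for SLC7A11 and -0.78 for SLC9B1, all 3 in LWDM 3. The high ones were -1.34 for SLC25A13 in LWDL 6 and -2.25 for SLC44A3 in LWDL 4. In fattening muscle they were 2.59 for ABCC9 in LWDM 7 and -1.78 for SLC1A2 in LWDL 7. In suckling fat KCNB2 was low, at -4.40 in LWDL 4. Suckling liver gave -0.60 for SLC16A6 in LWDL 2 and -1.74 for SLC44A3 in LWDL 3, and fetal liver -0.03 for SLC7A11 in LWDL 6. In fetal muscle LWDM 3 was high for both SLC36A2 (-0.83) and SLC44A3 (-2.47).

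KCNT2 was 1.46 higher in LWDM in suckling fat and lower in suckling liver (-1.68), with no overlap between the breed types in either tissue. The difference between the tissues was not tested.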

How the results depend on the processing

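Each comparison was repeated with other settings, and counts below are of called members, with the count as reported in brackets. With normexp background correction and loess, the tissue counts were 21 (41) for liver against muscle in fetuses, 18 (39) in sucklings and 24 (43) in fattening pigs, and 22 (36) and 29 (44) for fat against liver. The age counts were 16 (28) and 9 (23) in liver and 9 (18) and 6 (16) in muscle. The breed type counts were 3 (7) in suckling fat, 1 (4), 3 (17) and 5 (18) in fetal, suckling and fattening liver, 5 (8) in fetal muscle and 0 (3) in fattening muscle. When probes had to be above background on every array, which left fewer probes, they were 10, 10 and 8 for liver against muscle, 15 and 12 for fat against liver, 6 (22) and 7 (20) for fat against muscle, 11 and 5 in liver, 6 and 5 in muscle and 5 (15) in fat across ages, and 4 in suckling fat, 2 in fetal liver, 7 in suckling liver and 1 in fattening muscle between breed types. With no filter they were 25 for fattening against suckling muscle, and 11 (6) in fattening fat and 5 in fattening muscle between breed types.

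With the slide as a fixed block, the breed type counts were 0 in suckling fat, 2 in suckling liver and 3 in fetal muscle, where SLC2A14 turned from -1.21 to 0.048. Each rests on 1 slide with 2 arrays of each breed type. The slide as a random block kept all counts within 1.5 times. The replicate block gave 3 in suckling fat, where equal numbers are not pairs, and in tissue and age comparisons the block by number moved no count past 1.5 times. The methods' t-test gave 4 in suckling fat.

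With 1 array left out, the counts ran from 4 to 7 in suckling fat (4 without LWDL 3), from 15 to 18 in suckling liver and were 0 in suckling muscle between breed types, and 14 in fetal liver without LWDL 2. They ran from 36 to 37, 21 to 25 and 38 to 41 between suckling tissues (fat against liver, fat against muscle, liver against muscle) and were 42 between fetal tissues. Across ages they ran from 15 to 17 in fat, 28 to 31 and 22 to 23 in liver, and 16 to 20 and 16 to 19 in muscle.

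In all, 184 of 225 counts stayed within 1.5 times, and of 1320 values of single genes 1260 were kept, 15 fell short of the threshold, 44 moved and 1 turned. A tissue or age value was kept if it had the same direction and was still called. For breed types, 483 of the 1260, it was kept if it had the same direction and lay within 1 SD, whether called or not. Why they moved was not tested. Ratios rest on dim spots where a tissue lacks a transcript, so large folds are limited by background.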
